A study of Mus musculus with 6 samples.

Results

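The gene-dense stretches of mouse chromosome 10 hold 582 binding sites of SP1, out of 3595 sites on that chromosome and 9001 in the authors' deposited table. They were chosen by position alone: 368 sites start between 75 and 83 Mb, and 214, the distal stretch, start from position 126000000 to the end of the chromosome in build mm10, where the last listed site ends at 130542576. The other 3013 sites of chromosome 10 served for comparison. Accessibility was measured by ATAC-seq, in which the Tn5 transposase cuts open chromatin, in neural progenitor cells (NPC) and in R1 embryonic stem cells (ESC), a pluripotent mouse line, with 3 libraries each. The labels name R1 for both cell types and give no treatment, and they do not say how the NPC were derived or whether libraries came from separate cultures, so the deposited p-values may measure technical spread only. Per-library values were not analysed here, so depth per library is unknown and single sites carry the authors' standard error (SE) with no SD or n. At marker genes outside the stretches, 17 of 19 sites near 5 ESC genes were called lower in NPC. Of 14 sites near 3 NPC genes, 9 were called higher. Near 3 markers of mesenchymal, endodermal and glial cells, 12 of 17 sites were called lower. Over all listed sites, 32.6% were called lower and 22.8% higher. The markers were picked with earlier results of these data known, so these counts are no independent check.

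SP1 recognises GC boxes through its zinc fingers; these short GC-rich motifs are common in promoters that lie in CpG islands. Many such promoters belong to genes that nearly every cell uses and stay open in most cell types, while SP1 sites away from promoters often coincide with regulatory DNA that differs between cell types. Gene-dense DNA places many starts close together, and mammalian chromosomes also carry clusters of olfactory and vomeronasal receptor genes, which act in sensory neurons of the nose. Both kinds of gene neighbourhood are present in these stretches.

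Promoter sequences are shown first for 6 sites that lie over a promoter: the calls of smallest adjusted p in each direction (Nab2 and Coq10a higher in NPC, Pym1 and Dgka lower) and the uncalled sites of highest signal (Rab5b and Sarnp). They come from RefSeq on GRCm38.p6, run 5′ to 3′ on the gene's strand from 250 bases before the start to 50 after it, and carry the GC box in capitals, GGGCGG or on the other strand CCGCCC. Nab2 encodes a co-repressor of EGR transcription factors and lies at chr10:127666654-127666953, minus strand. Coq10a encodes a coenzyme Q-binding protein, and its window is chr10:128368931-128369230, minus strand. Pym1, which helps to take exon junction complexes off mRNA, has its window at chr10:128747629-128747928, plus strand. Dgka encodes diacylglycerol kinase alpha, and the window, chr10:128737563-128737862 on the minus strand, belongs to a start inside the gene. Rab5b encodes a small GTPase of early endosomes (chr10:128696219-128696518, minus strand), and Sarnp a nuclear protein that acts in mRNA export (chr10:128821514-128821813, plus strand).
Nab2: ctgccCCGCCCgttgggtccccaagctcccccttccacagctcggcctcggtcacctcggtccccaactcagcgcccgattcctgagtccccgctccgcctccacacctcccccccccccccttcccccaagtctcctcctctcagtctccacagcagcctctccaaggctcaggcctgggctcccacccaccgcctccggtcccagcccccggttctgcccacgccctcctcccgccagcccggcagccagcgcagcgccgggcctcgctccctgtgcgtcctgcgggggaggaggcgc
Coq10a: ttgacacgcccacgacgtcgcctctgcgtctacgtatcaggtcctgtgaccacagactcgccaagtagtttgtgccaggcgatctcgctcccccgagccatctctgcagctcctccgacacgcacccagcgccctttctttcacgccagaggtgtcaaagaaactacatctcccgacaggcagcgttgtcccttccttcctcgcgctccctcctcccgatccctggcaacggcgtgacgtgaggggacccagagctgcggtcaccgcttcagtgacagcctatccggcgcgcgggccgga
Pym1: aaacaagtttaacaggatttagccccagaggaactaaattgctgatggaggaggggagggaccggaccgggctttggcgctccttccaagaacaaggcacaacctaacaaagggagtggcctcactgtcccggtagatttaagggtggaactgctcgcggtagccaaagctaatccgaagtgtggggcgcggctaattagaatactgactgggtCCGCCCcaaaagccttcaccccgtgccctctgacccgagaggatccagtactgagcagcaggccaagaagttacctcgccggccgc
Dgka: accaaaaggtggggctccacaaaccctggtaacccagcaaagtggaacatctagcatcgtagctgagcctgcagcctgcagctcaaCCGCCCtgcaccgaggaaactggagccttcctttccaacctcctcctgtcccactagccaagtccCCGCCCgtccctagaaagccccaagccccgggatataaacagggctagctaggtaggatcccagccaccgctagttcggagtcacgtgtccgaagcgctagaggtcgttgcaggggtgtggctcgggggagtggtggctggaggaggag
Rab5b: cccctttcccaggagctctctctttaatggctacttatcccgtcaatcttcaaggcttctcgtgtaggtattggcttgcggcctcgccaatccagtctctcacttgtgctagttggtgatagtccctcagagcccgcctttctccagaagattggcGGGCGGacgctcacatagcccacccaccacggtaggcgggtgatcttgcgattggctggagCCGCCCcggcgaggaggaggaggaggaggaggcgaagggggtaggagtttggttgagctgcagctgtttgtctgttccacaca
Sarnp: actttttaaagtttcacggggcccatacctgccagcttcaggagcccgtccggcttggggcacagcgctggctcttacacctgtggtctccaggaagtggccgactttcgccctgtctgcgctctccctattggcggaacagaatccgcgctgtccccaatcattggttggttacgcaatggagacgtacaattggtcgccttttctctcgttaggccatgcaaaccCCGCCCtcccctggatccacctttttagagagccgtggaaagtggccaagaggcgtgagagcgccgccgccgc
The Dgka and Rab5b windows hold 2 GC boxes each and those of Nab2, Pym1 and Sarnp hold 1, while the Coq10a window holds 0 boxes and 29 CpG dinucleotides. A GC box therefore stood in windows of all 3 outcomes among these 6. A match to the motif is a description of the letters and does not show SP1 bound there.

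At those promoters the authors' deposited table gives a log2 fold change, NPC over ESC, of 2.33 (SE 0.41, adjusted p = 2.31e-07) for Nab2 and 1.64 (SE 0.29, adjusted p = 3.23e-07) for Coq10a. A site overlapping that of Coq10a was not called. Pym1 had -2.51 (SE 0.39) and Dgka -5.18 (SE 0.85) in the authors' deposited table, both with adjusted p below 0.05, the threshold used for every call. Rab5b and Sarnp, with the highest mean signals of the 582 sites at 115 and 98.2 in the authors' deposited table, had log2 fold changes of 0.10 (SE 0.18) and -0.10 (SE 0.20) and were not called. Mean signal here is the normalized read count averaged over libraries.

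Over the whole of both stretches, 343 of 421 protein-coding genes had a RefSeq promoter window, and 149 of the 582 sites (25.6%) overlapped one. Sites over a promoter made up 35 of 103 rises (34.0%), 16 of 193 falls (8.29%) and 98 of 286 uncalled sites (34.3%). A GC box stood in 115 of the 173 windows that overlapped a site (66.5%), in 103 of 341 windows of the stretches with no listed site (30.2%), and in 35.7% of all 32851 mouse promoter windows. On the rest of chromosome 10 the share was 63.0% of 373 windows with a listed site. The box was found in 32 of 42 windows at rises (76.2%), 13 of 18 at falls (72.2%) and 72 of 116 at uncalled sites (62.1%). The median number of CpG dinucleotides per window was 28 at rises, 11 at falls and 20 at uncalled sites. These shares were not tested against each other.

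The stretches were dense in genes and less so in sites. They held 33.6 protein-coding genes per Mb, against 5.05 on the rest of the chromosome between its first and last listed site, and 46.4 SP1 sites per Mb, against 26.2. All sites divided by all protein-coding genes gave 1.38 sites per gene in the stretches and 5.19 elsewhere. That ratio counts sites at any distance from a gene. Within 50 kb of a gene end lay 95.5% of the stretches' sites and 63.3% of the other chromosome 10 sites. The distal stretch had 35.4 genes and 47.1 sites per Mb, and the stretch from 75 to 83 Mb 32.5 genes and 46.0 sites per Mb. Olfactory and vomeronasal receptor genes, taken by symbols starting Olfr or Vmn, numbered 62 in the distal stretch and 14 in that from 75 to 83 Mb. Without them the densities were 21.8 genes per Mb in the distal stretch and 30.8 from 75 to 83 Mb.

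Sites of the stretches lay closer to genes than other sites. Within 1 kb of an end of some protein-coding gene lay 199 of the 582 (34.2%, 95% Wilson interval 30.5 to 38.1), against 14.5% of other chromosome 10 sites. Another 210 (36.1%) were inside a gene body, against 40.4%, and 173 (29.7%) were between genes, against 45.2%. Within 1 kb of an annotated start lay 173 sites (29.7%), against 13.3% elsewhere. A protein-coding gene end stood within 50 kb of 556 of the 582 sites, and these sites were assigned to 276 genes. Signal was also higher, with a median of 8.46 against 5.28. Sites are not replicates and 61 of the 582 overlap another, so every interval on a share covers counting over sites only.

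**Figure D1:**
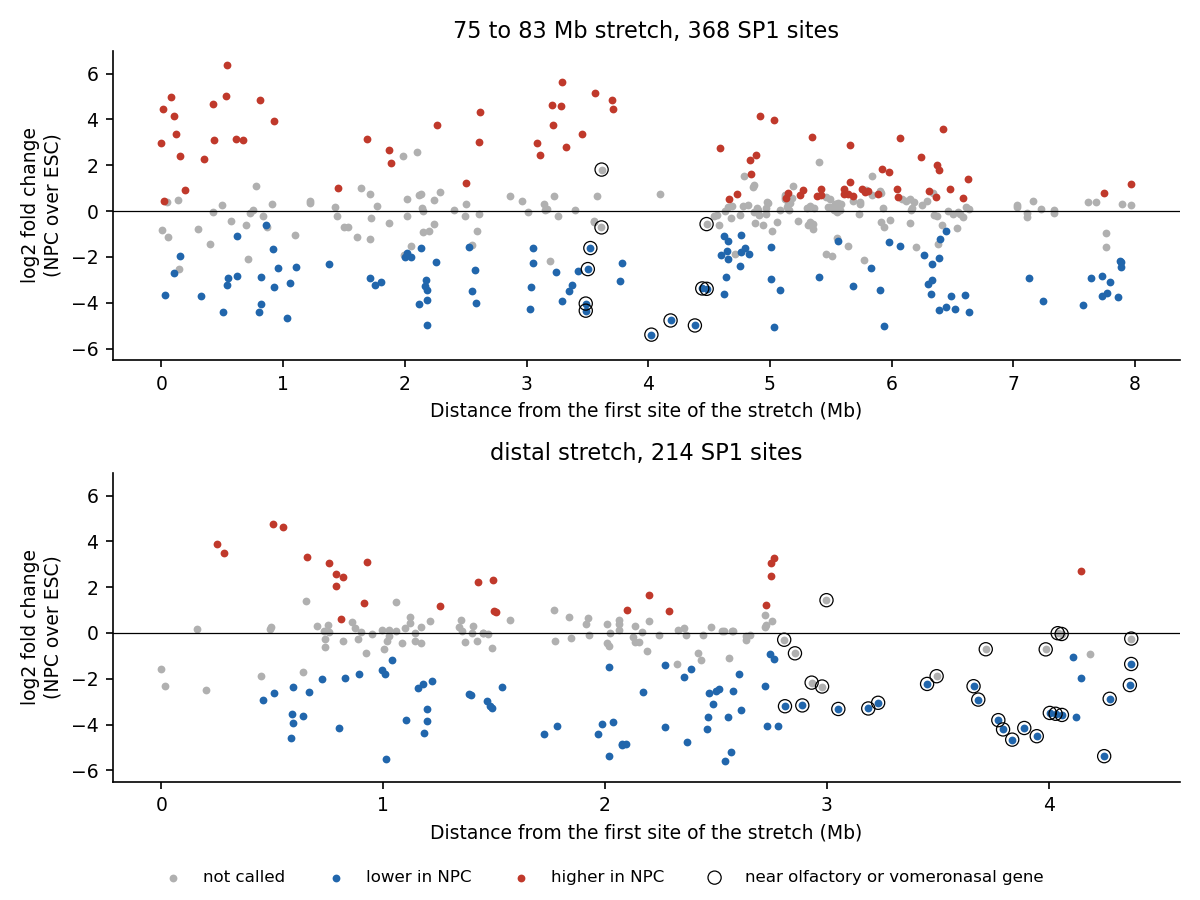
Log2 fold change (NPC over ESC) of each of the 582 SP1 sites against its distance in Mb from the first site of its stretch, with the stretch from 75 to 83 Mb above (368 sites) and the distal stretch below (214 sites). Points are coloured by call at adjusted p below 0.05, and circles mark the 43 sites near olfactory or vomeronasal receptor genes, among which no rise was called.

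Across both stretches 193 sites fell (33.2%), 103 rose (17.7%) and 286 were not called. Over all 9001 listed sites the shares were 32.6% falls and 22.8% rises, so the share of falls was near the background. The other chromosome 10 sites had 31.8% falls and 21.9% rises. The share of falls, stretches minus other sites, differed by 1.40 percentage points (95% Newcombe interval -2.67 to 5.65) and the share of rises by -4.17 points (-7.43 to -0.57). The interval for rises spans 0 without sites near olfactory and vomeronasal receptor genes, called receptor-gene sites below (-2.76 points, -6.21 to 1.05), after centring on the median of all listed sites (-2.75, -6.12 to 0.95), with the limits moved outwards by 1 Mb (-3.44, -6.60 to 0.03), without gene ends (-4.35, -8.20 to 0.05) and without the distal stretch (-0.68, -4.83 to 4.01). The median log2 fold change was -0.23 in the stretches (order-statistic interval -0.44 to -0.07) and -0.27 at other chromosome 10 sites.

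The stretches were not alike. In the distal stretch, 85 of 214 sites fell (39.7%) and 25 rose (11.7%), while from 75 to 83 Mb 108 of 368 fell (29.3%) and 78 rose (21.2%). The distal stretch minus that from 75 to 83 Mb gave a difference of 10.4 points in falls (interval 2.41 to 18.4) and of -9.51 points in rises (-15.3 to -3.20). Set against other chromosome 10 sites, the distal stretch differed by 7.96 points in falls (1.42 to 14.8) and by -10.2 points in rises (-14.1 to -4.99). The stretch from 75 to 83 Mb differed from them by -2.41 points in falls (-7.14 to 2.70) and by -0.68 points in rises (-4.83 to 4.01), both intervals spanning 0. The distal stretch's difference in falls was 1.46 points (-5.99 to 9.87) among sites of at least the median signal of all listed sites. It was 3.76 points (-3.03 to 11.1) without sites near olfactory and vomeronasal receptor genes, and 5.63 points (-0.41 to 12.0) with the limits of the stretches moved outwards by 1 Mb, so its interval spans 0 in these 3 settings. Its difference in rises was -15.5 points at sites of at least median signal. Median log2 fold changes were -0.51 in the distal stretch and -0.07 from 75 to 83 Mb.

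Position relative to genes separated the outcomes within the stretches. Of the 173 sites within 1 kb of a start, 19 fell (10.98%) and 40 rose (23.1%), with a median log2 fold change of 0.28 and a median signal of 18.7. Of the 409 sites farther away, 174 fell (42.5%) and 63 rose (15.4%), with a median log2 fold change of -0.87 and a median signal of 6.55. Elsewhere on chromosome 10 the same split gave 10.7% falls and 24.6% rises near starts, and 35.0% falls and 21.5% rises away from them. Away from starts the stretches thus had 7.54 points more falls than the rest of the chromosome (2.49 to 12.7), and the difference in rises was -6.04 points (-9.61 to -1.93). At sites of at least the median signal of all listed sites the difference in falls away from starts was 1.17 points (-5.63 to 8.29) and that in rises -11.9 points (-17.1 to -5.73). Without receptor-gene sites the differences were 4.61 points in falls (-0.61 to 10.02) and -4.23 points in rises (-8.11 to 0.24), both intervals spanning 0. Near starts, 9 of 62 sites fell and 9 rose in the distal stretch, while 10 of 111 fell and 31 rose from 75 to 83 Mb. Genes without a RefSeq promoter window have no start here, and 31 sites at an end of such genes count as away from starts. The 20 sites near the 3′ end of a gene and near no start had 8 falls and 2 rises. Signal moved with position, and its part in the split was not tested.

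By class, falls made up 16.1% of sites at gene ends, 41.0% in gene bodies and 43.4% between genes in the stretches. In gene bodies of the distal stretch the share of falls was 18.5 points above that of other chromosome 10 gene-body sites (interval 6.01 to 30.7), and the difference in rises was -14.7 points (-20.4 to -4.52). Between genes the same stretch had 13.2 points more falls (2.24 to 24.1), and 4.16 points more (-8.33 to 17.9) without receptor-gene sites, when 21 of its 52 sites fell (40.4%). At gene ends its share of rises differed by -10.8 points (-17.6 to -0.65). Sites of the distal stretch that lay 1 to 5 kb from a start fell in 15 of 24 cases (62.5%, interval 42.7 to 78.8). Those at 5 to 20 kb fell in 42 of 77 (54.5%, 43.5 to 65.2). Receptor-gene sites were not left out of these shares. The stretch from 75 to 83 Mb gave 39.6% and 36.2% at those distances, and other chromosome 10 sites 43.0% and 39.2%.

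**Figure D2:**
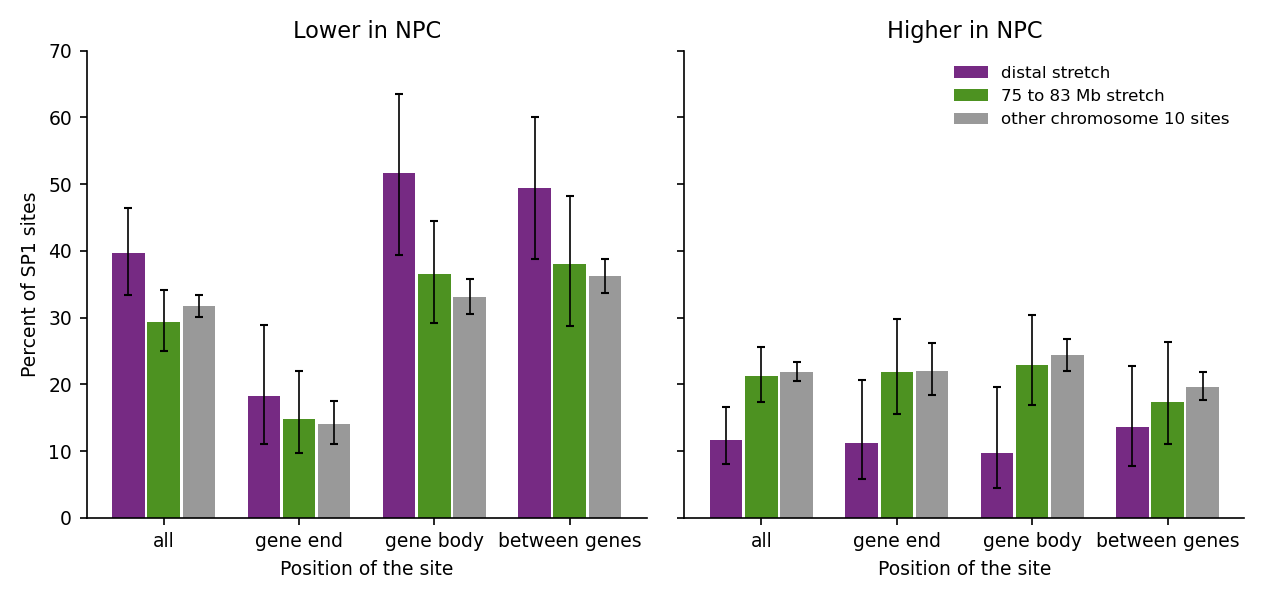
Percent of SP1 sites called lower in NPC (left) and higher in NPC (right) by position relative to protein-coding genes, for the distal stretch, the stretch from 75 to 83 Mb and the other chromosome 10 sites; bars start at 0 and error bars are 95% Wilson intervals over sites. Falls are least frequent at gene ends in every set, and the distal stretch has the tallest bars for falls in gene bodies and between genes.

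**Figure D3:**
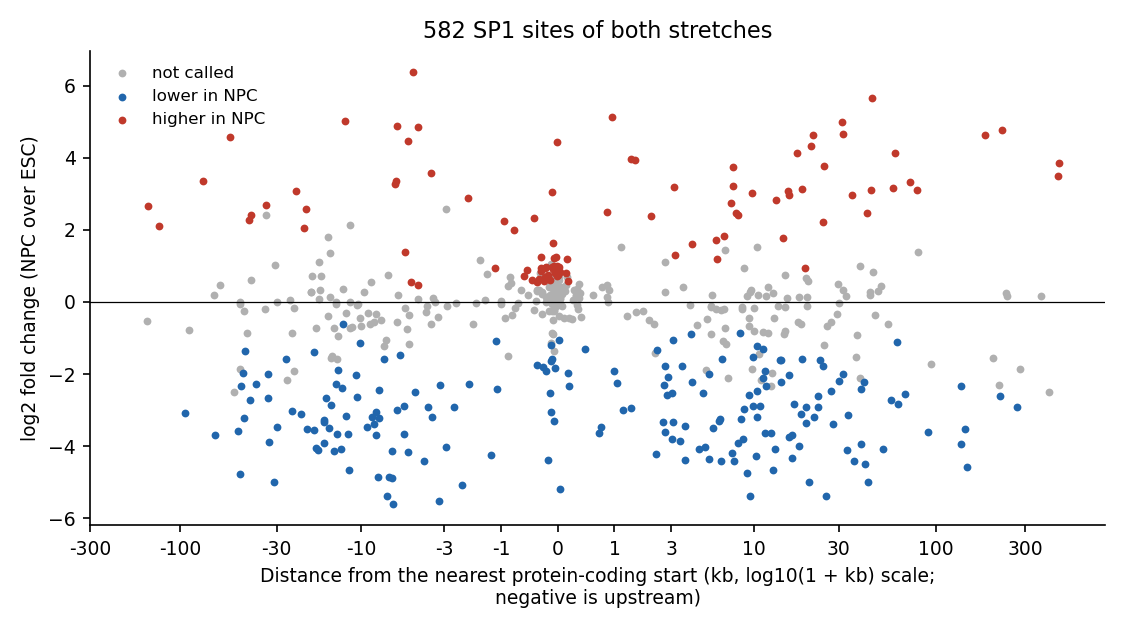
Log2 fold change (NPC over ESC) of the 582 sites against the distance to the nearest annotated protein-coding start in kb, on a log10(1 + kb) scale with upstream negative. Sites within 1 kb of a start cluster near 0 with 19 falls among 173, while most of the 193 falls lie farther away.

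Start sites and sites away could also be compared among sites assigned to the same nearest gene. The start could be that of any gene, and a site away could lie inside a neighbour. Over all sites of the stretches, 10.98% fell near starts and 42.5% away from them, and the counts below are to be read against that split. For 62 genes the stretches held both a site within 1 kb of a start and a site farther away. Where no start site was called, sites away fell at 23, rose at 9, did both at 4 and had no call at 7. Start sites and sites away both fell at 6 genes and both rose at 1 (Mknk2). At Cd63, Nfyb, Tcf3, Thop1 and Nab2 a start site rose and a site away fell, at C2cd4c and Icosl a start site fell and a site away rose, and Ctdsp2 had both directions in both places. Timeless, a clock- and replication-fork protein, had 3 uncalled start sites between 0.14 and 0.56 in the authors' deposited table, and a pair of gene-body sites that fell by 4.85 (SE 1.16) and 4.89 (SE 1.16) on the log2 scale. Cdk2, the cyclin-dependent kinase of S phase, likewise had an uncalled start site at 0.10 (SE 0.30) and, inside the neighbouring gene Pmel, a site at -5.60 (SE 1.17, adjusted p = 3.98e-06), the lowest log2 fold change of the 582, in the authors' deposited table. Nfyb encodes a subunit of the CCAAT-binding factor NF-Y, and the authors' deposited table gives 0.79 (SE 0.25) at its start and -3.69 (SE 1.27) and -2.83 (SE 1.19) at nearby sites that fell, both inside its neighbour Hcfc2. Nearest to Nab2 but inside its neighbour Stat6, 2 sites fell by 3.26 (SE 0.74) and 3.19 (SE 1.38) on the log2 scale of the authors' deposited table, opposite to the Nab2 promoter. Cd63, a tetraspanin of endosomes, had 1.24 (SE 0.41) at 1 start site and -4.08 (SE 0.78) in its body in the authors' deposited table.

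Among rises within 1 kb of a gene end, those of smallest adjusted p were at Nab2, Bloc1s1, Ptbp1, Mknk2 and Rsph14. The Bloc1s1 site, 547 bp from that gene and 70 bp from the start of Rdh5, had 3.05 (SE 0.58) in the authors' deposited table, and Ptbp1, a splicing regulator that represses neuronal exons, had 2.24 (SE 0.43). Mknk2, a kinase of the translation factor eIF4E, had 1.26 (SE 0.26) and Rsph14, a radial spoke protein of cilia, 4.44 (SE 1.02) in the authors' deposited table. The falls of smallest adjusted p at gene ends were at Gstt2 (-2.86, SE 0.38), a glutathione transferase, at Pym1, and at Ikzf4 (-2.52, SE 0.45), a zinc-finger factor of the Ikaros family, in the authors' deposited table. Chchd10, whose site lies inside Gm867, and C2cd4c followed with -3.32 (SE 0.64) and -1.91 (SE 0.38) in the authors' deposited table. Of the 5 gene-end sites of highest signal, those at Rab5b and Sarnp were not called. The others were called rises: Cactin rose by 0.90 (SE 0.22), Mbd3 by 0.65 (SE 0.24) and Izumo4 by 0.65 (SE 0.23) on the log2 scale of the authors' deposited table.

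**Figure D4:**
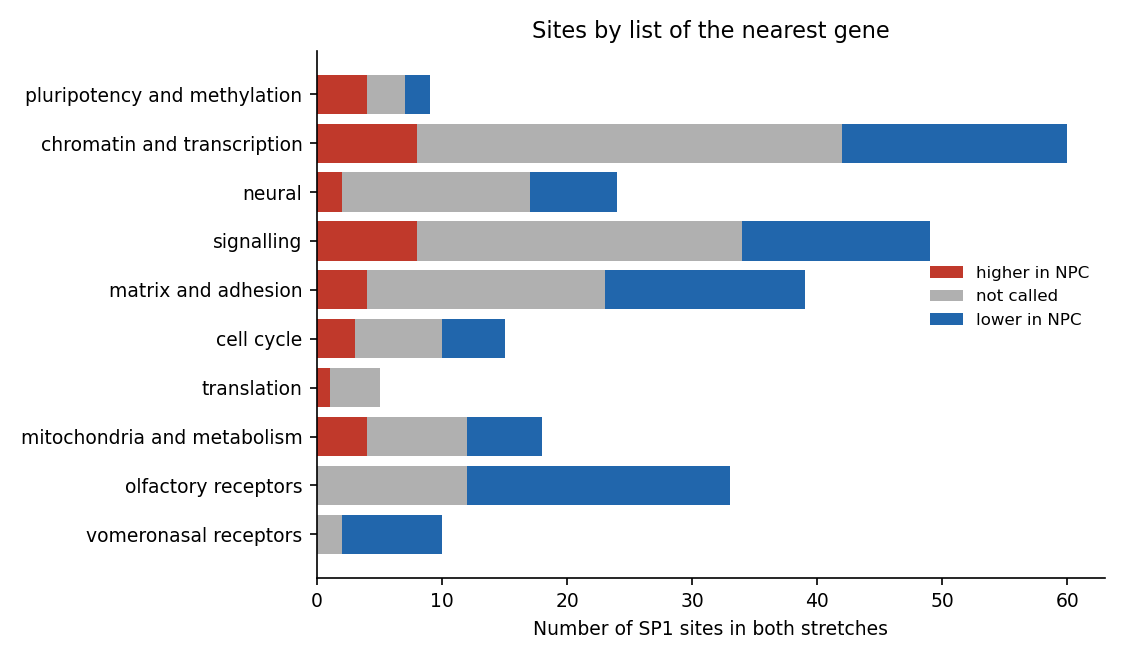
Number of SP1 sites in both stretches whose nearest protein-coding gene within 50 kb belongs to each list, split into called higher in NPC, not called and called lower in NPC. The matrix and adhesion list has 16 falls among 39 sites, with 8 of the falls at Col18a1, against 32.6% falls over all listed sites, and the receptor lists have falls and uncalled sites with no rise.

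The lists below are to be read against all listed sites. Of those sites, 32.6% fell and 22.8% rose, with a median log2 fold change of -0.29. Falls made up 14.4% of those near starts and 35.8% of those away from them. Sizes of the fixed gene lists count every symbol written down, whether or not a gene of that name lies in the stretches. Genes of the matrix and cell adhesion had 39 sites at 12 of 12 listed genes, of which 16 fell (41.0%), 4 rose (10.3%) and 19 were not called, with a median of -1.13. Col18a1 alone gave 15 of these sites and 8 of the falls, and the other 11 genes had 8 falls among 24 sites (33.3%), near the share over all listed sites, with a median of -0.38. Falls lay away from starts in 15 of the 16 cases. Col18a1, the collagen that yields endostatin, had the most sites of any gene with 15. All 5 of its sites between genes fell, with log2 fold changes of -4.99 to -3.03 in the authors' deposited table. These 5 lie at chr10:77182641-77199615, 16.4 to 32.8 kb from the gene boundary at a start. The 2 start sites of Col18a1 were not called, at -0.00 (SE 0.50) and -0.89 (SE 0.67) in the authors' deposited table. Itgb2, a leukocyte integrin chain, had 2 falls among 3 sites, and Mmp11 and Mmp19, matrix metalloproteinases, had 1 falling site each. Chst11, a chondroitin sulfotransferase, had a rise of 1.18 (SE 0.49) at a start in the authors' deposited table. A start site overlapping that one was not called.

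Genes of chromatin and transcription had 60 sites at 21 of 22 listed genes, with 18 falls (30%), 8 rises (13.3%) and a median of -0.06. The share of falls was near that over all listed sites. None of the 14 sites at starts fell and 3 rose, and 18 of the 46 sites away from starts fell (39.1%) and 5 rose, a split of the kind seen over all listed sites. Ikzf4 had 5 falls among 6 sites, from -4.17 (SE 1.04) to -2.52 (SE 0.45) in the authors' deposited table. Hmg20b, a member of a histone demethylase complex with LSD1, had 2 falls at its 2 sites. Nfic, a nuclear factor I protein, had both directions among 6 sites, with 3 falls and 2 rises. Smarcc2, a subunit of neural and other BAF remodelling complexes, rose at its start by 0.98 (SE 0.49) on the log2 scale of the authors' deposited table. Onecut3, a homeodomain factor, had 5 sites, none of them called.

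The small list headed pluripotency and DNA methylation had 9 sites at 5 genes, with 4 rises, 2 falls and a median of 0.57. Tcf3 alone gave 4 of the 9 sites, 2 of the rises and 1 of the falls, so the list says little about pluripotency genes. Dnmt3l, which assists the enzymes that methylate DNA de novo in pluripotent and germ cells, fell at a start inside the gene by 3.31 (SE 1.10) on the log2 scale of the authors' deposited table. Mbd3, a subunit of the NuRD complex, rose at its start as given above. Tcf3, the E-protein E2A, had 2 start sites, overlapping each other, that rose by 0.96 (SE 0.48) and 0.68 (SE 0.31) in the authors' deposited table. A body site of Tcf3 fell, at -2.88 (SE 0.85) in the authors' deposited table.

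Neural genes had 24 sites at 12 of 17 listed genes, with 2 rises (8.33%), 7 falls (29.2%) and 15 uncalled sites. The share of falls was near that over all listed sites, and the median, 0.06, lay above theirs. Adarb1, an RNA-editing enzyme, and Agap2, a GTPase-activating protein of neurons, had the rises, at 3.78 (SE 1.24) and 1.30 (SE 0.63) in the authors' deposited table. Celf5, an RNA-binding protein of the brain, had a gene-body site at -4.19 with SE 0.64 and adjusted p = 2.76e-09 per the authors' deposited table. Neurod4, a proneural basic helix-loop-helix factor, fell at both of its sites, by 1.06 (SE 0.33) at its start and by 3.66 (SE 0.71) outside the gene, on the log2 scale of the authors' deposited table. The 3 sites of Kif5a, a neuronal kinesin, were not called.

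Signalling genes had 49 sites at 19 of 24 listed genes, with 8 rises (16.3%), 15 falls (30.6%) and a median of -0.39, near the values over all listed sites for falls and median. Inhbe and Inhbc, neighbouring genes of activin beta subunits, had 4 sites and 4 falls, from -4.38 (SE 1.20) to -2.25 (SE 0.59) in the authors' deposited table. The 2 Inhbc sites overlap each other. Gdf11, a ligand of the TGF-beta family, had 2 uncalled start sites and a body site that fell by 2.31 (SE 0.46) on the log2 scale of the authors' deposited table. Csnk1g2, a casein kinase, rose at both start sites, which overlap each other. Stat2, a factor of interferon signalling, rose at its start by 0.99 (SE 0.28) on the same scale of the authors' deposited table. Lrp1, a large endocytic receptor, had 9 sites with 2 falls and 1 rise, and neither site of Gli1, the Hedgehog effector, was called.

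Cell cycle genes had 15 sites at 8 of 10 listed genes, with 3 rises (20.0%) and 5 falls (33.3%), both near the shares over all listed sites; 4 of the 6 sites away from starts fell. Cdc34 and Fzr1, which act in ubiquitin-dependent control of the cycle, rose at their starts by 0.55 (SE 0.22) and 0.62 (SE 0.29) on the log2 scale of the authors' deposited table. Lmnb2, a nuclear lamin, had a start site that fell by 3.46 (SE 0.80) beside an uncalled one at 0.88 (SE 0.60) in the authors' deposited table. Mitochondrial and metabolic genes had 18 sites at 10 of 15 listed genes, with 4 rises and 6 falls. Of the rises 3 were at starts, and none of the falls were. Polrmt, the mitochondrial RNA polymerase, and Timm13, an import chaperone, rose at their starts by 0.73 (SE 0.37) and 0.75 (SE 0.27) on the log2 scale of the authors' deposited table. Translation genes had 5 sites at 4 of 8 listed genes, with 1 rise and 0 falls. The rise was at Rps15 (0.92, SE 0.36) in the authors' deposited table. A site near a gene does not show that it acts on that gene, and the lists were not tested against each other.

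Olfactory and vomeronasal receptor genes were taken by symbols starting Olfr or Vmn, and receptor genes of other names were not counted. The 76 genes so taken lay in the stretches and nowhere else on chromosome 10 in the listed span. Their 43 sites had 29 falls and 0 rises, which allows a share of rises of up to 6.98% by the limit of 3 counts that a count of 0 leaves, or 8.20% by the Wilson interval, for counting over sites only. The 33 sites at 25 of 68 olfactory receptor genes had 21 falls and a median log2 fold change of -2.91, and the 10 sites at 6 of 8 vomeronasal receptor genes had 8 falls and a median of -3.13. Signal was low, with a median of 3.84 at the olfactory sites, and the median SE over the 43 sites was 1.17. Of the 43, 41 had a log2 fold change below 0 and 2 lay at a gene end. The site near Vmn2r85, at chr10:130419943-130420443, had the highest signal of the 43, 32.9, and fell by 5.38 (SE 0.74, adjusted p = 2.03e-11) on the log2 scale of the authors' deposited table. Near Olfr827 a site that fell by 3.58 (SE 0.67) lay beside an uncalled one at -0.04 on the log2 scale of the authors' deposited table. The 8 listed sites near such genes outside the stretches had 5 falls and 0 rises. Without the 43 sites, the remaining 539 had 30.4% falls and 19.1% rises, and the remaining 183 of the distal stretch had 35.5% falls and 13.7% rises.

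Along the stretches, the balance changed from window to window. Among 1 Mb windows with at least 15 sites, the 92 windows of the rest of the chromosome had a median of 31.2% falls, ranging from 0 to 83.3%. The window from 80 to 81 Mb had the most sites, 83, of which 11 fell (13.3%) and 21 rose (25.3%), and 87 of the 92 other windows had a higher share of falls. It also held 33 gene-end sites and 53 genes. The windows from 129 and 130 Mb, which hold 49 and 12 of the 76 receptor genes, had 9 falls among 15 sites (60.0%) and 13 among 19 (68.4%), with 1 of the 92 other windows above each. The first window of the distal stretch held 2 protein-coding genes and 37 sites, with 11 falls and 10 rises, so the stretch is not gene-dense throughout.

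Calls also ran in series. From 76997695 to 77273801, over Col18a1, 25 consecutive sites had 11 falls and 0 rises. From 80102464 to 80418779, between Sbno2 and Tcf3, 25 consecutive sites had 6 rises and 0 falls. In the distal stretch, 35 consecutive sites from 128492804 to 128895918 (Myl6 to Cd63) had 16 falls and 0 rises, and its longest run with 0 falls was 8 sites. Longer runs were found on the rest of the chromosome, up to 46 sites with 0 rises and 39 with 0 falls. Consecutive called sites less than 3 kb apart, from the end of one to the start of the next, had the same direction in 20 of 27 pairs in the stretches (74.1%, interval 55.3 to 86.8), against 76 of 104 elsewhere on chromosome 10 (73.1%). At 3 to 20 kb the share was 59.5% of 79 pairs, against 57.1% of 333.

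Opposite directions occurred in 7 of the 27 pairs whose sites were less than 3 kb apart from edge to edge; the distances below are between starts of the 500 bp sites and so run longer. Gpx4, which reduces lipid hydroperoxides, had a site at 3.96 (SE 0.89) and a site at -5.08 (SE 1.00) whose starts lay 2724 bp apart, in the authors' deposited table. At Lrrc75b, sites whose starts lay 3051 bp apart had -3.21 (SE 1.36) and 6.37 (SE 1.14) in the authors' deposited table, where 6.37 was the highest log2 fold change of the 582. Bcr, a GTPase regulator with 10 sites at its start or inside it, had 4 rises and 2 falls. Agpat3, a lysophospholipid acyltransferase, had 3 rises and 3 falls among its 7 sites. Its gene-body sites included rises of 5.65 (SE 1.17) and 4.58 (SE 0.85) and a fall of -3.94 (SE 1.06), per the authors' deposited table.

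The other largest changes by the naming rule were spread over genes of unlike function. From 75 to 83 Mb the rises also included Ilvbl (5.14, SE 1.14), Gstt2 (4.87, SE 1.15) and Upb1 (4.66, SE 1.16), all enzymes, in the authors' deposited table. Falls there included sites near Olfr57 (-5.39, SE 1.14), Vmn2r80 (-4.78, SE 1.17) and in Nfic (-4.34, SE 1.20) in the authors' deposited table. In the distal stretch, rises were led by sites near Atp23 (3.33, SE 0.60) and Os9 (3.09, SE 0.70), with smaller ones near Tespa1 (2.69, SE 0.81) and Ctdsp2 (2.57, SE 0.48) in the authors' deposited table. Falls were led, after Cdk2, by Arhgef25 (-5.51, SE 1.14) and Rbms2 (-5.39, SE 1.00), an RNA-binding protein, in the authors' deposited table. Ctdsp2, a phosphatase of the polymerase tail, had 7 sites with 4 rises and 2 falls, and Rbms2 had 6 sites with 4 falls and 0 rises.

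Signal split the calls as well. In sites with at least the median signal of all listed sites, the stretches had 25.6% falls and 20.2% rises, against 29.2% and 28.4% at other chromosome 10 sites. Below it they had 48.0% falls and 12.8% rises, against 33.9% and 16.3%. Sites of at least median signal made up 66.3% of the stretches and 46.1% of the others. How far signal, position and receptor genes account for one another was not tested.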

How the data were processed

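ATAC-seq of 3 NPC and 3 ESC libraries was analysed from 1 table of the authors' own comparison. The submitters' processing notes name mm10, BWA 2.1, Picard 2.23.8, MACS2 2.2.7, SAMtools 1.9 and DESeq2, without settings. The choice of SP1 sites and any shift of reads for the Tn5 offset are steps not given in the sources used here that could change the signal per site or the balance of directions. Each 500 bp site has a mean signal, a log2 fold change with its standard error, a p-value and an adjusted p-value, all deposited by the authors, per the file headers. NPC over ESC as the direction comes from the table's name alone. Dividing each log2 fold change by its standard error gave a p-value below the deposited one at 0 sites, with a median ratio of 2.35, so fold changes may be shrunk. Calls from p-values recomputed that way numbered 166 falls and 78 rises in the stretches, against 193 and 103 from the deposited ones. Named changes near 2 SE in size therefore rest on the deposited p-values. Fold changes of sites with few reads depend on the authors' fit and are no bounds. The table does not state whether coordinates count from 0 or 1.

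A site was called at a deposited adjusted p-value below 0.05. Gene positions and promoters came from RefSeq tables of GRCm38.p6, which is mm10, and strand came from the promoter table. Exons were not analysed here. Gene ends were taken within 1000 bp of the site, and each site went to the coding gene whose end was nearest, up to 50 kb away. Shares carry 95% Wilson intervals, differences of shares Newcombe intervals and medians order-statistic intervals. No test was run, since sites of the same libraries are not replicates. Python 3.11.15 with pandas 2.3.3, numpy 2.4.6 and scipy 1.17.1 was used. Calling from recomputed p-values was tried on simulated fold changes, and the position rules on small made-up examples. The deposited adjusted p-values, on which the calls rest, and the intervals on shares were not simulated.

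Named sites were, in each stretch, the 5 rises and 5 falls of largest log2 change among sites of at least median signal, 1 per gene. At gene ends they were the 5 of smallest adjusted p-value in each direction and the 5 of highest signal. List genes with a site and promoters by a like rule were also eligible. Examples of opposite neighbours, contrasts among sites of the same nearest gene and runs were picked after their values were seen. The members, lists and marker genes were chosen with earlier results of these data known. Alternatives were other thresholds, distances, signal classes and leaving out either stretch, and, added after the data were seen, leaving out receptor-gene sites, sites near starts or Col18a1, and signal classes away from starts.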

Additional observations from a re-analysis of the deposited data

How the results depend on the processing

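Of 75 alternative values, 54 stayed within the set tolerance, 17 moved and 4 changed sign. The tolerance was wide, so the 54 do not measure stability. They include the distal stretch's difference in falls at sites of at least median signal, 1.46 points against 7.96. The difference in rises without the distal stretch, -0.68 points against -4.17, is also among them. The median log2 fold change of the 582 sites, -0.23, was -0.87 without gene-end sites, -0.87 without sites within 1000 bp of a start, -0.51 without the stretch from 75 to 83 Mb and 0.031 at sites of at least median signal. Falls numbered 99 of 386 sites (25.6%) at that signal, against 193 of 582 (33.2%). Rises numbered 68 at adjusted p below 0.01, against 103. The difference in falls from other chromosome 10 sites, 1.40 points, was 7.27 without gene ends, 7.54 without sites near starts and 7.96 without the stretch from 75 to 83 Mb. It was -3.60 at sites of at least median signal, -2.41 without the distal stretch and -1.34 without receptor-gene sites. For the distal stretch alone, 7.96 points became 15.6 without gene ends, 14.99 without sites near starts, 1.46 at sites of at least median signal and 3.76 without receptor-gene sites. The difference in rises, -4.17 points, was -7.68 for log2 changes above 1 in size, -8.18 at sites of at least median signal, -10.2 without the stretch from 75 to 83 Mb, and closer to 0, with intervals spanning it, without receptor-gene sites (-2.76), after centring (-2.75), with limits moved outwards by 1 Mb (-3.44) and without the distal stretch (-0.68); without gene ends it was -4.35, also spanning 0. In the distal stretch it was -15.5 at sites of at least median signal, against -10.2. The gene-end share, 34.2%, was 46.4% at sites of at least median signal, 26.5% within 500 bp and 44.3% within 2000 bp. The cause of these shifts was not tested. Low signal limits the precision at single sites, with no depth per library. No paired analysis was possible because values per library were not analysed here, and leaving out a library could not be run for the same reason.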
